A study of Mus musculus with 8 samples.

Results

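The members described here are the epidermal growth factor receptor gene Egfr, its partner receptors Erbb2 and Erbb3, and 6 genes for ligands of the receptor, Hbegf, Areg, Ereg, Epgn, Tgfa and Btc. They were taken by gene symbol from the array's annotation, keeping probe sets annotated with that symbol alone. Of the 9 genes listed, 8 were measured, by 9 probe sets, among 22180 genes in all. No probe set was annotated to Areg, so amphiregulin was not analysed here. Ereg had 2 probe sets and every other measured member had 1.

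Receptors of the ErbB family are tyrosine kinases that work as pairs. Ligands of the epidermal growth factor type are made as membrane-bound precursors, and metalloproteases cut them loose to act on the same cell or its neighbours. ErbB2 binds no ligand of its own and serves as a partner, and ErbB3 has a weak kinase and binds neuregulins. In skin the pathway supports keratinocyte proliferation, migration and wound repair and shapes the hair follicle, and mouse mutants of Tgfa and Egfr have wavy hair. Several ligands of the family are known to be more abundant in psoriatic than in normal epidermis.

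The study profiled dorsal skin of male mice on 8 Affymetrix arrays, 1 array per label. WT mice were C57BL/6, and KO mice carried the strain label B6.Cg-Il22ra1tm1.1Koll/J, which names a targeted allele of the IL-22 receptor alpha chain. IMQ in a label stands for imiquimod, a Toll-like receptor agonist that induces psoriasis-like inflammation: per the labels, 83.3 mg of Aldara cream (5% IMQ) went onto back and ear each day from day 1 to day 7. Vehicle or alloferon cream, alloferon being a peptide first found in insects, was given 6 hours after IMQ. The array labels were WT_CTRL and WT_IMQ, KO_CTRL and KO_IMQ, KO_CTRL-B and KO_IMQ_B, and KO_Allo and KO_IMQ_Allo. Each of these 4 pairs, called WT, KO plain, KO B and KO Allo below, has 1 array with and 1 without IMQ in its label. Whether both arrays of a pair had the same cream besides IMQ is not given, so a difference called that of IMQ is one between these labels. The labels state 4 mice per group. The age of the mice, whether several were pooled on an array, the meaning of B and what the arrays labelled CTRL received are not given. Whether the targeted allele is deleted, and in which cells, is not given either in the sources used here.

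All values are log2 levels made by robust multi-array averaging (RMA), and the array medians lay between 5.68 and 5.73. A difference of 1 log2 unit is 2-fold. The probe set of Il22ra1 read 8.23 on WT_CTRL, 8.64 on WT_IMQ and 8.93 ± 0.26 (SD, n = 6) on the arrays labelled KO, so this probe set does not check the genotype, and every genotype named here is the label's. Epidermal keratinocyte markers (10 of 11 measured) had medians of 9.93 to 10.51 on the 8 arrays. Skeletal muscle markers (15 of 15 measured) were highest on WT_CTRL and KO_CTRL (median 11.43 on both), with medians of 8.36 to 9.43 elsewhere. Hair follicle markers (20 of 21 measured) had medians of 5.61 to 7.79 with IMQ; without it KO_CTRL stood lowest, at 7.18, and the other 3 arrays lay between 8.93 and 10.10. Monocyte and macrophage markers (13 of 13 measured) lay at 7.31 to 7.83 without IMQ and 8.50 to 9.24 with IMQ. In whole skin, fewer cells of a type and less RNA per cell cannot be told apart.

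Among protein-coding genes, Epgn, Ereg, Areg and Btc are direct neighbours in that order on mouse chromosome 5, between Mthfd2l and Parm1, per RefSeq. Epgn and Btc lie at the ends of this run and had different level profiles over the arrays, so their promoters are shown for comparison. Both are from RefSeq on build GRCm38.p6 and cover 250 bases before to 50 after the annotated start, 5′ to 3′ on the gene's strand, Epgn at chr5:91027267-91027566 on the + strand and Btc at chr5:91402945-91403244 on the - strand. Capitals mark matches to the TATA box letters TATAAA.
Epgn promoter: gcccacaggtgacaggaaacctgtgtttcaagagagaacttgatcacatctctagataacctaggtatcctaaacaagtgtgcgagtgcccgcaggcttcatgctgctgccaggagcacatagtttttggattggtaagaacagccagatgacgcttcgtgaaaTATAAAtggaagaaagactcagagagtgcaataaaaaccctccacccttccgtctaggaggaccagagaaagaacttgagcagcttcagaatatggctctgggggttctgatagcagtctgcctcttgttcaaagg
Btc promoter: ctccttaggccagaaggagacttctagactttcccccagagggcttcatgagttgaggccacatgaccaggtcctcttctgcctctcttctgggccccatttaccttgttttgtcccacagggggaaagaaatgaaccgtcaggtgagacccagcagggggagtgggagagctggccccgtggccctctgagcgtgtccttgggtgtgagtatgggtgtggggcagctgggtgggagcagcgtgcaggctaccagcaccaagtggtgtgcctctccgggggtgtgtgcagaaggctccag
The Epgn window held 1 match to TATAAA, at position -86 from the annotated start, and the Btc window held 0. The Areg window also held 1, at -31, and those of Tgfa, Egfr and Erbb2 held 0. Of 32851 promoters of the same 300 bases, counted with a chromosome left out, 13.6% held TATAAA on either strand. The AP-1 letters TGANTCA were found in 0 of the windows of Epgn, Btc, Tgfa, Egfr, Erbb2 and Areg, where 7.81% of the 32851 promoters held them on either strand. No window of Hbegf, Ereg or Erbb3 was searched. A match is only a description of the letters, and 0 matches say only that the letters are not in this window. The Epgn window was 47.3% G and C and the Btc window 60.3%.

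The first comparison asks how the members' levels differed with IMQ over the 4 pairs. Hbegf, Epgn and Ereg had the largest mean differences, 1.49, 1.35 and 1.16 log2 units, all higher with IMQ, and Tgfa measured 0.49. The 3 receptor genes measured between -0.22 and 0.05, and Btc -0.40. In limma's test across all genes 0 of the 8 members passed an adjusted p under 0.05, where 3.09% of all genes did. At an unadjusted p under 0.05 the members Hbegf, Ereg, Epgn and Tgfa passed, 4 of 8, where 18.8% of all genes did. The median difference of the 8 members was 0.27, beside -0.0078 for all genes. Higher levels in 4 of 4 pairs were seen for Hbegf, Epgn and Tgfa, 3 of 8 members, beside 12.6% of all genes.

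**Figure D1:**
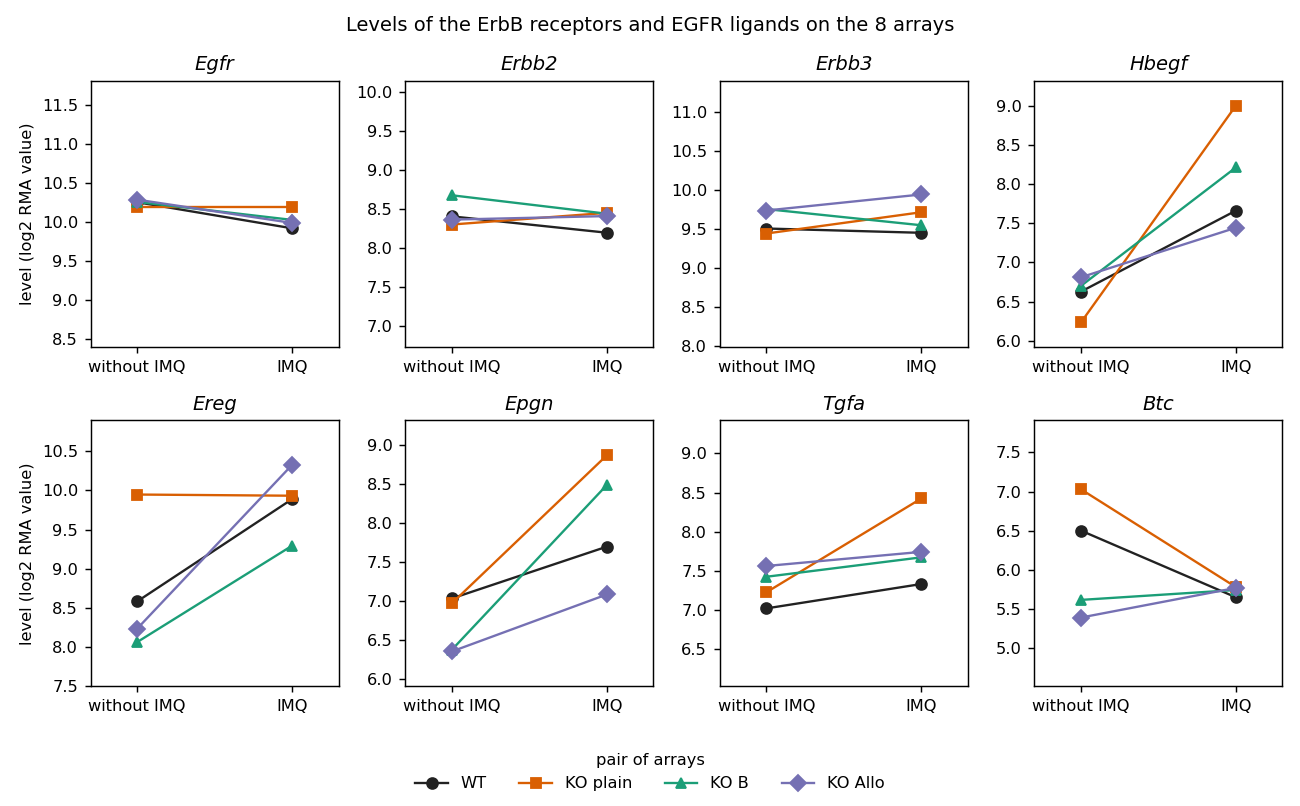
Levels of the 8 measured members (log2 RMA value, vertical axis, every panel spanning the same number of log2 units) on the arrays without and with IMQ; each line joins the 2 arrays of a pair (WT, KO plain, KO B, KO Allo). Hbegf and Epgn read higher on all 4 IMQ arrays than on any array without IMQ, Ereg was higher with IMQ in every pair but KO plain, and the lines of the 3 receptor genes are nearly flat.

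Hbegf encodes heparin-binding EGF-like growth factor, a ligand of EGFR and ErbB4. Without IMQ it read 6.63 on WT_CTRL, 6.23 on KO_CTRL, 6.70 on KO_CTRL-B and 6.81 on KO_Allo. With IMQ it read 7.66 on WT_IMQ, 9.01 on KO_IMQ, 8.22 on KO_IMQ_B and 7.44 on KO_IMQ_Allo. The 2 groups of 4 arrays did not overlap, and KO_IMQ stood highest and KO_IMQ_Allo lowest among the IMQ arrays. The mean difference was 1.49 ± 0.32 log2 units (SE, 4 pairs), a fold of 2.81 with a 95% interval of 0.72 to 2.26 log2 units and an adjusted p of 0.0623 in limma. This SE and interval are limma's, drawn towards a variance shared over all genes. The 4 pair differences themselves had an SD of 0.93. Without the KO Allo pair the mean difference was 1.78 and passed (adjusted p = 0.0314 in limma). Without dim genes it also passed at the same size (adjusted p = 0.0468). It did not pass without KO plain (1.06, adjusted p = 0.0769 in limma), KO B (1.48, 0.220) or WT (1.64, 0.191). With a trended robust prior it did not pass either (adjusted p = 0.112 in limma). With the skeletal muscle median as a covariate the difference was 0.41, and with the hair follicle median 3.47 (adjusted p = 0.962 and 0.902 in limma). Each covariate leaves 2 residual degrees of freedom. Both medians were also lower on the IMQ array in each of the 4 pairs, so these fits separate IMQ from the covariate poorly.

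Epgn encodes epigen, a low-affinity ligand of EGFR. Its levels were 7.04 on WT_CTRL, 6.97 on KO_CTRL, 6.38 on KO_CTRL-B and 6.36 on KO_Allo, against 7.70 on WT_IMQ, 8.87 on KO_IMQ, 8.49 on KO_IMQ_B and 7.09 on KO_IMQ_Allo. The groups did not overlap, though the lowest IMQ array, KO_IMQ_Allo, lay only 0.051 log2 units above WT_CTRL. The difference was 1.35 ± 0.27 (SE, 4 pairs; 95% interval 0.71 to 1.99), a fold of 2.55, with an adjusted p of 0.0510 in limma. The 4 pair differences themselves had an SD of 0.76. The pairs fell into a larger difference in KO plain (1.89) and KO B (2.11) and a smaller one in WT (0.66) and KO Allo (0.73). The Epgn difference passed without the KO Allo pair (1.55, adjusted p = 0.0322 in limma) and without dim genes (adjusted p = 0.0388). It did not pass without WT (1.58, adjusted p = 0.133 in limma), KO plain (1.17, 0.169) or KO B (1.095, 0.185). Nor did it with a trended robust prior (adjusted p = 0.0738 in limma). With the hair follicle covariate it was 2.88 and with the muscle covariate 1.20 (adjusted p = 0.902 and 0.818 in limma). Hbegf and Epgn were thus the 2 of 8 members whose IMQ arrays all lay above the arrays without IMQ, beside 5.96% of all genes. No member had all IMQ arrays below, beside 5.04% of all genes.

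Ereg encodes epiregulin, a ligand of EGFR and ErbB4 made by keratinocytes and macrophages. Its main probe set read 8.58 on WT_CTRL, 9.95 on KO_CTRL, 8.06 on KO_CTRL-B and 8.23 on KO_Allo. On the IMQ arrays it read 9.89 on WT_IMQ, 9.93 on KO_IMQ, 9.29 on KO_IMQ_B and 10.33 on KO_IMQ_Allo. KO_CTRL was the exception: it read above 3 of the 4 IMQ arrays, while the other 3 arrays without IMQ lay below all of them. The other probe set had the same array at the top of the group without IMQ, with 6.12, 6.92, 6.23 and 6.09 on WT_CTRL, KO_CTRL, KO_CTRL-B and KO_Allo, and 6.77, 6.84, 6.75 and 7.28 on the matching IMQ arrays. Over the 4 pairs the main probe set differed by 1.16 ± 0.30 (SE; 95% interval 0.43 to 1.88; adjusted p = 0.0995 in limma) and the other one by 0.57 ± 0.52 (SD, n = 4 pairs). The SD of the main probe set's 4 pair differences was 0.87. Leaving out the KO plain pair gave 1.55 and a pass (adjusted p = 0.0373 in limma). Leaving out WT, KO B or KO Allo gave 1.10, 1.13 and 0.84, and no pass. With the hair follicle covariate the direction turned, to -0.23, and with the muscle covariate the value was 2.36. Both covariates were themselves lower with IMQ in every pair, so these fits separate IMQ from the covariate poorly.

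Tgfa encodes transforming growth factor alpha, an EGFR ligand that keratinocytes make themselves. It read 7.02 on WT_CTRL, 7.22 on KO_CTRL, 7.42 on KO_CTRL-B and 7.56 on KO_Allo, and 7.33 on WT_IMQ, 8.42 on KO_IMQ, 7.67 on KO_IMQ_B and 7.74 on KO_IMQ_Allo. The groups overlapped, since WT_IMQ lay below KO_CTRL-B and KO_Allo. The difference was 0.49 ± 0.18 (SE, 4 pairs; adjusted p = 0.217 in limma), and the KO plain pair, at 1.20, stood apart from 0.31, 0.25 and 0.18 in WT, KO B and KO Allo. Without KO plain it was 0.25. With the muscle covariate it turned to -0.14, and with the hair follicle covariate it was 1.50.

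Btc encodes betacellulin, a ligand of EGFR and ErbB4. It read 6.50 on WT_CTRL and 7.03 on KO_CTRL, against 5.61 on KO_CTRL-B, 5.39 on KO_Allo, 5.65 on WT_IMQ, 5.78 on KO_IMQ, 5.74 on KO_IMQ_B and 5.77 on KO_IMQ_Allo. The first 2 arrays stood apart from the other 6, and the 4 IMQ arrays differed by little. The level was near the median of all probe sets (percentile 54.5). The difference with IMQ was -0.40 ± 0.27 (SE, 4 pairs; adjusted p = 0.496 in limma), lower in WT and KO plain and higher in KO B and KO Allo. Without KO plain it was -0.12, without WT -0.25 and without KO Allo -0.66. The same 2 arrays had the highest skeletal muscle marker medians, 11.43 on both. Adipocyte markers (10 of 11 measured) were highest there too, with medians of 8.52 on WT_CTRL and 8.71 on KO_CTRL against 7.22 to 7.84 elsewhere, and their part in the Btc values was not tested. With the muscle median as a covariate the Btc difference was 0.89, turned in direction, and did not pass (adjusted p = 0.627 in limma).

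**Figure D2:**
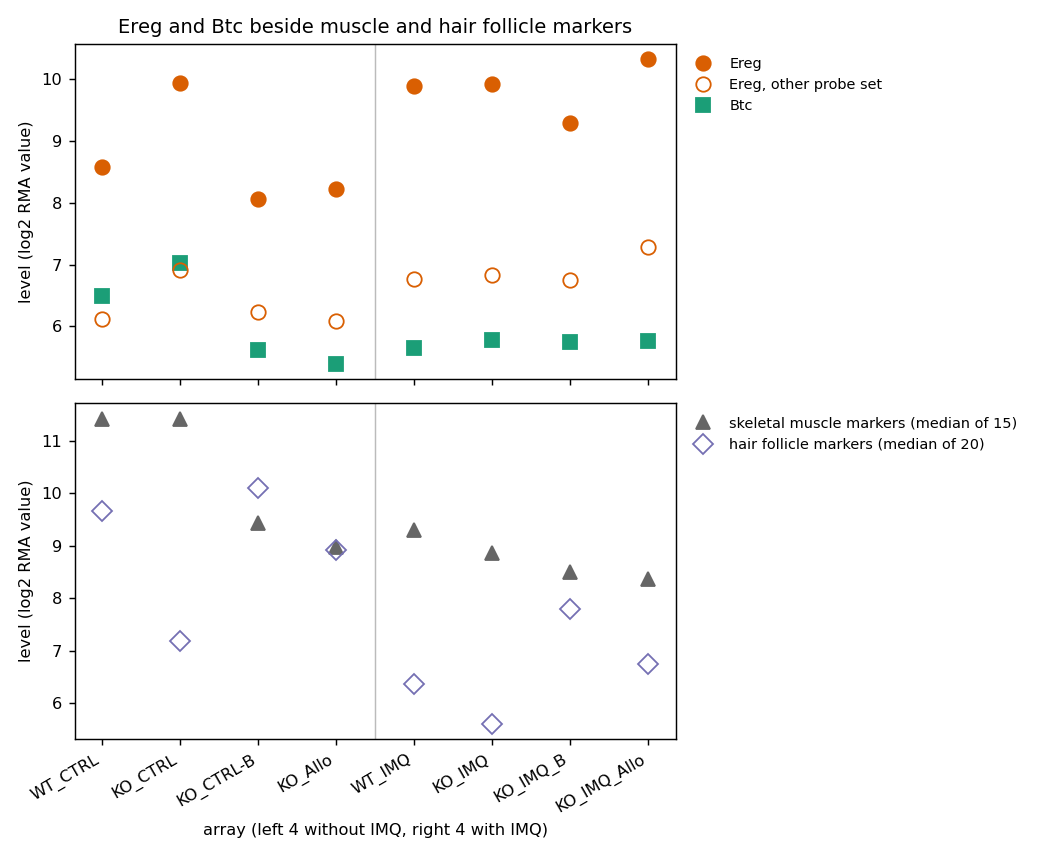
Levels (log2 RMA value, vertical axes) on the 8 arrays, with the 4 arrays without IMQ left of the line: both Ereg probe sets (filled and open circles) and Btc above, medians of skeletal muscle markers (filled triangles) and hair follicle markers (open diamonds) below. Btc and the muscle median were highest on WT_CTRL and KO_CTRL, and among arrays without IMQ Ereg was highest, and the hair follicle median lowest, on KO_CTRL.

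The receptor genes varied least among the members. Egfr read 10.25, 10.19, 10.26 and 10.28 on WT_CTRL, KO_CTRL, KO_CTRL-B and KO_Allo, and 9.92, 10.19, 10.03 and 9.99 on the matching IMQ arrays. It was lower with IMQ in every pair but KO plain, whose 2 arrays differed by 0.0007, and the mean difference was -0.22 ± 0.098 (SE, 4 pairs; 95% interval -0.45 to 0.018; adjusted p = 0.301 in limma). With the hair follicle covariate it was 0.19. Erbb2 ranged from 8.20 on WT_IMQ to 8.68 on KO_CTRL-B, with 2 pairs higher and 2 lower with IMQ and a difference of -0.06 ± 0.11 (SE; adjusted p = 0.811). Erbb3 ranged from 9.44 on KO_CTRL to 9.94 on KO_IMQ_Allo, also with 2 pairs in each direction, and differed by 0.05 ± 0.11 (SE; adjusted p = 0.853 in limma). The sign of Erbb3 turned without KO plain, to -0.019. With a covariate that itself moved with IMQ, Erbb2 was 0.42 (hair follicle) and Erbb3 was -0.054 (skeletal muscle). Their intervals, -0.31 to 0.19 for Erbb2 and -0.21 to 0.32 for Erbb3, bound the mean differences over these pairs well below the ones measured for Hbegf and Epgn.

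**Figure D3:**
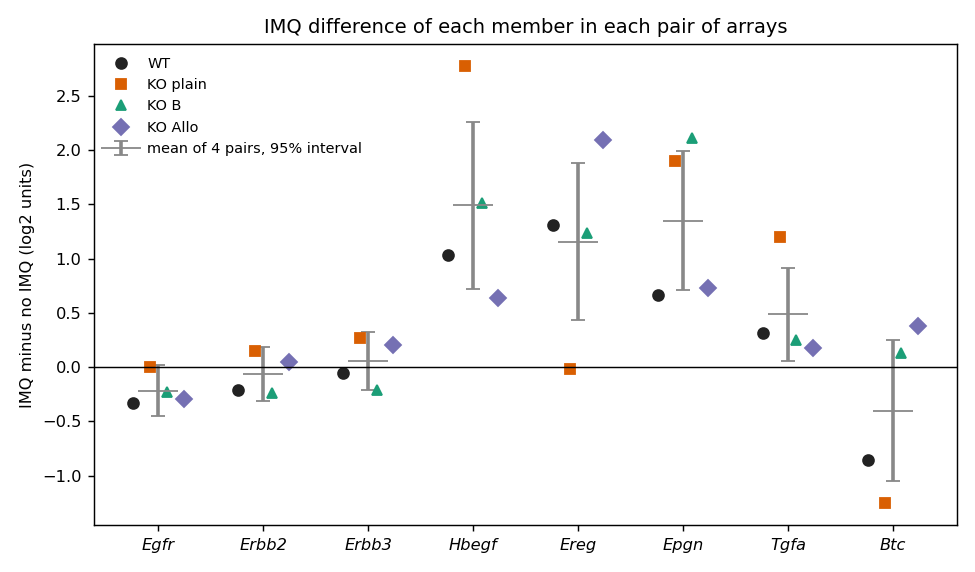
IMQ difference of each measured member (log2 units, vertical axis) in the WT, KO plain, KO B and KO Allo pairs, with the mean of the 4 pairs and its 95% interval from limma in grey. The ligand genes Hbegf, Ereg and Epgn have the highest means, the receptors lie near 0, and the KO plain pair is highest for Hbegf and Tgfa and lowest for Ereg and Btc.

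Counted pair by pair, members differing by 1 log2 unit or more were Hbegf and Ereg in the WT pair (2 of 8, beside 4.62% of all genes), and Hbegf, Epgn, Tgfa and, downward, Btc in KO plain (4 of 8, beside 4.91%). In KO B they were Hbegf, Ereg and Epgn (3 of 8, beside 3.12%), and in KO Allo Ereg alone (1 of 8, beside 1.71%). No ligand gene passed this size in every pair, and no receptor gene did in any pair. Each pair is 1 array against 1, with no replicate check.

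The second comparison asks whether the IMQ difference depended on the IL-22 receptor genotype. Hbegf and Epgn differed less in the WT pair than on average over the 3 KO pairs, 1.04 against 1.64 and 0.66 against 1.58. Ereg differed about as much in both, 1.31 against 1.10. In limma's test of WT minus KO 0 of 8 members passed, nor did any gene (0% of 22180), and at an unadjusted p under 0.05 0 of 8 members and 4.12% of genes did. The difference between the responses was -0.91 ± 0.56 for Epgn (SE; 95% interval -2.31 to 0.49), -0.60 ± 0.78 for Hbegf (-2.56 to 1.35) and 0.20 ± 0.77 for Ereg (-1.73 to 2.14), with adjusted p of 0.983 to 0.992 in limma. The WT side is 1 pair of arrays with no spread of its own. These errors come from the scatter of the 3 KO pairs, drawn by limma towards a variance shared over all genes. Of the 3 KO pairs 1 carries the alloferon label. The Hbegf value was -0.038 without KO plain and -1.11 without KO Allo, so it rests on which KO pairs are used, and the Hbegf difference in KO Allo (0.63) was itself below that in WT. Ereg was -0.36 without KO plain and 0.70 without KO Allo. The pair labelled KO Allo had an Epgn difference close to that of WT, so the KO side is not uniform.

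On single IMQ arrays, KO_IMQ read higher than WT_IMQ by 1 log2 unit or more in 3 of 8 members, beside 1.29% of all genes in either direction. These were Hbegf (9.01 against 7.66), Epgn (8.87 against 7.70) and Tgfa (8.42 against 7.33). KO_IMQ_B differed that much from WT_IMQ in 0 of 8 members (beside 1.22%), and from KO_IMQ in 0 of 8 (beside 0.915%). Without IMQ, KO_CTRL read higher than WT_CTRL for Ereg (9.95 against 8.58; 1 of 8, beside 1.34%), and KO_CTRL-B differed from WT_CTRL that much in 0 of 8 (beside 1.14%). The 2 KO arrays without IMQ or alloferon differed from each other in 2 of 8 members (beside 2.84%): KO_CTRL-B was lower than KO_CTRL by 1.89 log2 units for Ereg and by 1.41 for Btc. A difference between KO_CTRL and WT_CTRL was therefore smaller than that between the 2 KO arrays for both genes.

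The third comparison asks whether the IMQ difference was another one in the pair labelled with alloferon. In that pair Hbegf and Epgn differed by 0.63 and 0.73 log2 units, against means of 1.78 and 1.55 over the other 3 pairs, while Ereg differed by 2.10 against 0.84. Btc differed by 0.38 against -0.66. In limma's test 0 of 8 members passed, where 2 of all genes did (0.00902%), and at an unadjusted p under 0.05 0 of 8 members and 8.24% of genes did. The difference between the responses was -1.14 ± 0.63 for Hbegf (SE; 95% interval -2.67 to 0.39), -0.83 ± 0.56 for Epgn (-2.18 to 0.53), 1.25 ± 0.53 for Ereg (-0.045 to 2.55) and 1.04 ± 0.51 for Btc (-0.21 to 2.29), with adjusted p of 0.622 to 0.791 in limma. Each interval holds 0, and the pair labelled with alloferon has no spread of its own. The errors come from the scatter of the other 3 pairs, again drawn towards a variance shared over all genes. The other 3 pairs include WT, so this contrast mixes the alloferon label with the genotype label. Against KO plain and KO B alone the values were -1.51 for Hbegf, -1.27 for Epgn, 1.49 for Ereg and 0.94 for Btc. Without KO plain the values were -0.64 for Hbegf and 0.82 for Ereg. Epgn was -0.55 without KO B.

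The IMQ array with alloferon can be set beside either KO array with IMQ. KO_IMQ_Allo was lower than KO_IMQ by 1 log2 unit or more for Hbegf (7.44 against 9.01) and Epgn (7.09 against 8.87), 2 of 8 members, beside 1.48% of all genes. Against KO_IMQ_B, Epgn was lower (7.09 against 8.49) and Ereg higher (10.33 against 9.29), again 2 of 8, beside 1.27%. Epgn was therefore the member past this size against both arrays. Without IMQ, KO_Allo differed from KO_CTRL in Ereg and Btc (2 of 8, beside 3.15%), lower by 1.71 and 1.64, and from KO_CTRL-B in 0 of 8 (beside 1.24%). Several marker lists also set KO_IMQ_Allo apart. The monocyte and macrophage median was 8.50 there and 8.98 to 9.24 on the other IMQ arrays. Mast cell markers were lower too (5.46 against 6.26 to 7.26), as were fibroblast markers (11.58 against 11.97 to 12.06). Sebaceous gland markers were higher (8.91 against 7.21 to 8.24), and the neutrophil median, 5.38, lay within the 5.06 to 5.70 of the others. The part of these cell types in the values was not tested.

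Other genes of the pathway came from 5 lists, of which 71 of 78 genes were measured. Over the 4 pairs 3 of the 71 rose and 1 fell in limma, beside the 3.09% of all genes called. The median difference over the 71 was 0.013. IMQ arrays all lay above the others for 11 of the 71 genes, beside 5.96% of all genes, and below for 7, beside 5.04%.

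Among other ligands and the receptor ErbB4, 0 of 6 passed. Nrg1, which encodes neuregulin 1, a ligand of ErbB3 and ErbB4, had the largest difference, 1.39 ± 0.33 (SE; adjusted p = 0.0791 in limma). It read 5.47 to 6.57 without IMQ, and 6.82, 8.15, 7.61 and 6.63 on WT_IMQ, KO_IMQ, KO_IMQ_B and KO_IMQ_Allo, so that the KO Allo pair differed by 0.06. Without that pair Nrg1 measured 1.83 and passed (adjusted p = 0.00513). Egf, the founding ligand of the family, measured -0.37 ± 0.15 (adjusted p = 0.250 in limma) and was highest on WT_CTRL and KO_CTRL, as Btc was, with 5.89 and 5.59.

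Among genes for ligand shedding 1 of 10 rose, Adam8, a metalloprotease also made by myeloid cells, by 1.07 ± 0.21 (SE; adjusted p = 0.0490 in limma). It read 6.00, 6.28, 6.45 and 6.85 on WT_CTRL, KO_CTRL, KO_CTRL-B and KO_Allo, and 7.46, 7.66, 7.64 and 7.10 on the matching IMQ arrays. The groups did not overlap, and the KO Allo pair had the smallest difference, 0.25. Adam17, the main sheddase of Hbegf, Areg, Ereg, Epgn and Tgfa, measured 0.39 ± 0.09 (adjusted p = 0.0661), with 0.33 to 0.45 in every pair. Adam10, the main sheddase of Btc and Egf, measured 0.18.

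Of the negative regulators 1 of 18 rose, Sh3kbp1, an adaptor for receptor endocytosis, by 0.74 ± 0.11 (SE; adjusted p = 0.0268 in limma), with 0.46 to 0.93 in the 4 pairs. Spred2, an inhibitor of the Ras and ERK pathway, measured -0.50 ± 0.11 (adjusted p = 0.0618 in limma). Errfi1, a feedback inhibitor of EGFR, measured 0.0058, and Lrig1, which lowers EGFR levels, -0.20. Among adaptors and the kinase cascade 1 of 18 fell, Braf, a kinase upstream of ERK, by 0.51 ± 0.09 (SE; adjusted p = 0.0407). Stat3 measured 0.47 ± 0.14 (adjusted p = 0.130 in limma), with -0.0061 in the KO Allo pair.

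Of 19 measured ERK and EGFR response genes 1 rose, Ier3, an immediate early gene, by 0.85 ± 0.16 (SE; adjusted p = 0.0478 in limma). The list's median was 0.17. The prostaglandin synthase gene Ptgs2 and the gelatinase gene Mmp9 measured 1.19 ± 0.78 and 1.13 ± 0.48 (adjusted p = 0.476 and 0.273 in limma), with opposite signs between pairs. Ptgs2 differed by 2.45, 1.12 and 3.21 in WT, KO plain and KO B and by -2.03 in KO Allo, and Mmp9 by 2.10, 1.08 and 2.18 against -0.86. Without KO Allo both passed, at 2.26 and 1.79 (adjusted p = 0.0232 and 0.0111 in limma). Ptgs2 was 0.51 without KO B and 0.76 without WT, and did not pass (adjusted p = 0.835 and 0.769 in limma). The 4 genes that passed, Adam8, Sh3kbp1, Braf and Ier3, lost that status without the WT pair, without KO B and with either tissue covariate, and without KO plain as well.

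**Figure D4:**
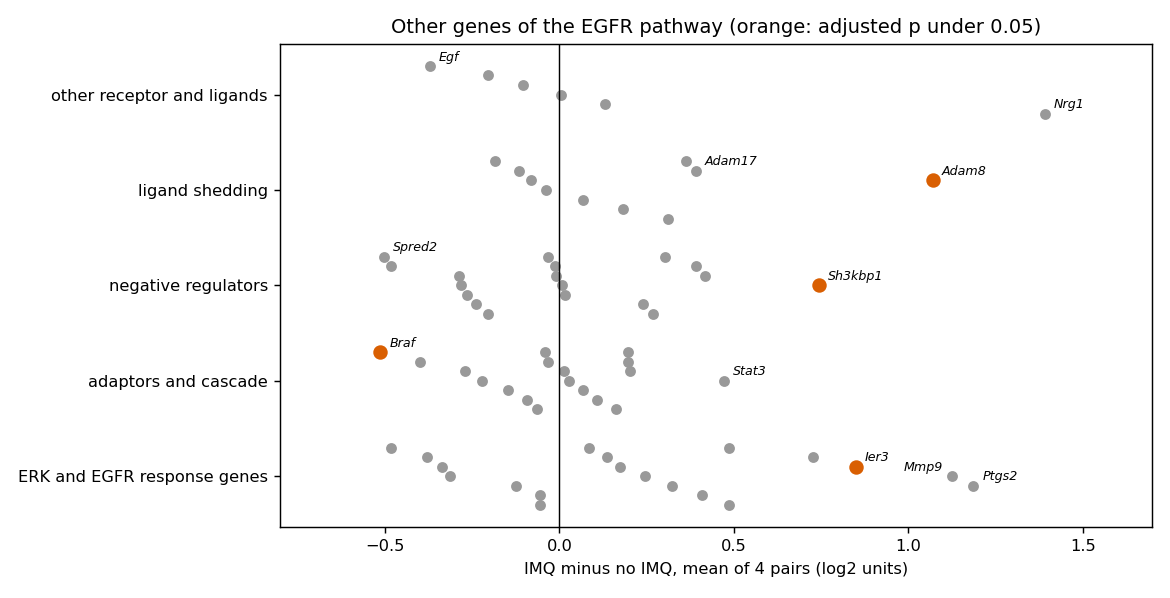
Mean IMQ difference over the 4 pairs (log2 units, horizontal axis) of the 71 other pathway genes measured, 1 point per gene, in 5 lists; vertical position within a list only separates the points. Orange points are the 4 genes with an adjusted p under 0.05 in limma (Adam8, Sh3kbp1 and Ier3 higher, Braf lower), and most others lie within 0.5 log2 units of 0.

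The members with a range of 1 log2 unit or more, Hbegf, Ereg, Epgn, Tgfa and Btc, were each set beside the 3 genes with the most similar profile, measured as the root mean square difference of centred log2 levels over the 8 arrays. For Hbegf these were Ankk1 (0.22), Slpi (0.23), which encodes a secreted protease inhibitor, and Cdhr1 (0.26). For Ereg they were Lipn (0.33), a lipase of the upper epidermis, Olfr705 (0.43) and Casp4 (0.44), and Lipn was also higher on KO_CTRL (6.81) than on WT_CTRL (6.05), KO_CTRL-B (5.87) or KO_Allo (6.07). Epgn lay nearest to H2-Q10 (0.33), the formyl peptide receptor gene Fpr2 (0.36) and the leukocyte integrin gene Itgb2 (0.38). Tgfa lay nearest to Abcb11 (0.09), Prss22 (0.13) and the microRNA gene Mir1934 (0.13). Some of these neighbours were dim: Abcb11 (3.86 to 5.41), Mir1934 (3.39 to 4.52) and Olfr705 (3.31 to 4.43) read below the median of every array. Btc lay nearest to Alpk2 (0.12), Cacng6 (0.13) and Tcea3 (0.14), all of which read highest on KO_CTRL and next on WT_CTRL. These values describe 8 arrays that share 1 array run per label, and carry no test.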

How the data were processed

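Total RNA of dorsal skin was hybridised to 8 arrays, 1 per label. The authors deposited log2 RMA levels for 41345 probe sets, and the submitters' processing notes name Affymetrix Power Tools and R 3.3.2. RMA gives every array the same distribution of probe values, which removes a shift shared by most genes, and its differences are compressed for dim genes. Probe sets with 1 annotated gene symbol (23521) were kept, and of several for a gene the brightest on average stood for it. The number of arrays limits the precision.

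Tests used limma 3.58.1 in R 4.3.3 (lmFit, eBayes), with Benjamini-Hochberg adjustment over all 22180 genes. Each fit had a level per pair of arrays and 1 IMQ effect (3 residual degrees of freedom), or separate effects for WT and KO, or for KO Allo and the other pairs (2 each). Every SE and interval is moderated by eBayes, which draws each gene's variance towards a value shared over all genes. This narrows the errors of genes whose pairs scatter widely and widens those of genes whose pairs scatter little. Nothing says that arrays hold separate animals, so p-values reflect only how far these arrays scatter, possibly for technical reasons, true differences between pairs included. The fits were also run on simulated data drawn without differences between pairs, unlike these arrays. That run does not show how the fits behave where pairs differ. Members, lists and tests were chosen with earlier results of these data known. Named genes are the members, the called pathway genes, the 2 largest differences per pathway list and the 3 nearest profiles; Errfi1, Lrig1 and Adam10 were added for their roles after their values were seen. No scan dates or batches were given.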

Additional observations from a re-analysis of the deposited data

Results flagged for a closer look

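For Tgfa, the KO plain pair stood apart from the other 3 pairs. Its IMQ difference was 1.20 log2 units against 0.31, 0.25 and 0.18, and its gap to the nearest pair was 0.871 of the range of the 4 pairs, above Dixon's 95% critical value for 4 values. The 8 members were each examined in this way, and chance marks about 1 in 20 such groups.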

How the results depend on the processing

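The count of members called for the IMQ difference was 0 of 8, and 0 to 2 with each pair left out in turn (Hbegf and Epgn without KO Allo, Ereg without KO plain). It was 2 without dim genes (Hbegf and Epgn, of 7 members kept), where fewer genes were tested. It stayed 0 with a trended robust prior, with the mean of a gene's probe sets, after median centring or renewed quantile normalization, and with either tissue covariate. With no replicate block it was 0 too; leaving out arm levels and reading KO plain and KO B as 1 arm are the same fit, since no label gives KO plain and KO B another genotype or alloferon status. Over all genes the IMQ count was 685, and 454 with no replicate block, 1028 without dim genes, 0 without WT, 260 without KO plain, 2 without KO B, 1307 without KO Allo and 0 with either covariate. For KO Allo minus the other pairs it was 2, and 33 with the trended robust prior, 0 without WT, 23 without KO plain, 24 without KO B, 22 with muscle as covariate and 0 with hair follicle as covariate. The member counts for WT minus KO and for KO Allo minus the other pairs were 0 under every alternative run, and the count of member values past 1 log2 unit between single arrays was 12 of 80, or 11 after median centring.

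The directions below turned, at adjusted p of 0.627 (IMQ difference of Btc) and 0.874 to 0.9998 (all others) in limma. Both covariates were themselves lower with IMQ in every pair, so the covariate fits do not settle a direction. For the IMQ difference, with the muscle covariate: Erbb3 -0.054, Tgfa -0.14, Btc 0.89, Egf 0.14 and Ptgs2 -0.24. With the hair follicle covariate: Egfr 0.19, Erbb2 0.42, Ereg -0.23, Egf 0.26, Ptgs2 -1.41 and Mmp9 -0.78. Without KO plain Erbb3 was -0.019, in a range up to 0.14 over the pairs left out. For WT minus KO, without KO plain: Ereg -0.36 (up to 0.70 over the pairs left out) and Tgfa 0.097 (down to -0.41); with the muscle covariate: Btc 0.032; with the hair follicle covariate: Egfr 0.31, Erbb2 0.32, Erbb3 0.45, Hbegf 2.27, Ereg -2.64 and Tgfa 1.55. For KO Allo minus the others, with the muscle covariate: Egfr 0.0059, Tgfa 0.18 and Btc -0.0061. Of the pathway genes, Braf also missed the threshold without the replicate block and without KO Allo, Adam8 after either renewed normalization and Ier3 after quantile normalization. In the other direction, Adam17 and Spred2 passed with the trended robust prior (adjusted p = 0.0403 and 0.0410 in limma) and without dim genes (0.0351 and 0.0379). Spred2 and Stat3 passed without KO Allo (adjusted p = 0.0334 and 0.0287 in limma). The cause was not tested.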
